A study of Hypomesus transpacificus with 70 samples.

Results

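Among the delta smelt gill transcripts that the study listed as responding to salinity, 24 probes gave a lower mean signal at 0, at 12 and at 18 ppt than in the handling controls kept at 2 ppt. They stood for 21 assembled transcripts (isotigs) under 20 gene names. They were taken from the 697 probes (487 isotigs) of the study's list, on an array of 36818 probes. For each probe the difference from 2 ppt was averaged over 6, 24 and 48 h in the log2 values deposited by the authors, and a probe was kept where this difference was -0.2 or lower at 0, 12 and 18 ppt. The rule also left out 17 gene symbols, which removed 6 of the 30 listed probes that met the 3 thresholds. A log2 difference of 1 is a 2-fold difference in signal. The probes were thus chosen by these measured values, and every difference from 2 ppt at 0, 12 or 18 ppt is given below as a description, without a test.

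All fish were Hypomesus transpacificus, hatchery-reared prespawning adults from a refuge population, kept at 2 ppt before the trial, and 1 gill sample of each of 70 fish was hybridized to an array of its own. Before the trial 5 fish were taken at 2 ppt (pre-experiment). The others were handled alike and brought to 0, 2, 6, 12 or 18 ppt over a ramp that ended at 6 h, and were sampled at 6, 24 and 48 h from its start. These salinities are those of the sample labels, which round the study's targets. The study's target for the 0 ppt fish was slightly above 0 ppt, and that for the 2 ppt fish slightly above 2 ppt. The fish had been reared in fresher water before they were held at 2 ppt. There were 6 fish per time at 2 ppt and 4 per time at the other salinities, except 3 at 12 ppt and 24 h. The study describes extra containers for the handling controls, and the labels of the 2 ppt and pre-experiment fish carry a letter A, B or C whose meaning is not given in the sources used here. At the other salinities the fish of a time may have shared 1 container, and container and group then cannot be told apart. The p-values below measure the spread between individual fish and not between containers, also where 48 h is compared with 6 h at 6 ppt. In a whole gill sample, fewer cells of a type and less RNA per cell cannot be told apart.

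The name "lower at both extremes" described the chosen transcripts only in part. The lowest of the 3 differences was at 12 ppt for 15 of the 24 probes, at 0 ppt for 6 and at 18 ppt, the highest salinity, for 3. The difference at 12 ppt was more negative than at 18 ppt for 20 probes, and at 0 ppt more negative than at 18 ppt for 18. At 6 ppt, which the rule did not use, 12 of the 24 were at -0.2 or lower and 5 were above 0. This was near the share in the list they came from, where 372 of 697 probes were at -0.2 or lower at 6 ppt. They are therefore called transcripts lower at 0, 12 and 18 ppt than at 2 ppt.

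The fish gill is the surface of ion exchange and gas exchange, and a main contact with pathogens. Its ionocytes take up or secrete salt according to the water, beside pavement cells, mucous cells, leukocytes and vessels. The transcripts described here have no single known function. They include a von Willebrand factor A domain protein (G7c), a membrane efflux transporter, receptors for steroid and Wnt ligands, a probe with conflicting annotations as a chemokine receptor and as a transcription factor, fish-specific TRIM proteins of antiviral defense, and enzymes of mitochondrial translation and lipid metabolism.

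The sequences that the main results rest on were the 60-base oligos on the array, printed 5′ to 3′. The array carried pairs of overlapping oligos for many transcripts, and capitals mark the bases that both oligos of a pair share for CU915778.1 (G7c) and for pir (pirin). They are shown because such pairs measured the same transcript through partly different bases.
CU915778.1 probe 14124: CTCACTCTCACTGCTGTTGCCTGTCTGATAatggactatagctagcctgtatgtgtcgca
CU915778.1 probe 14125: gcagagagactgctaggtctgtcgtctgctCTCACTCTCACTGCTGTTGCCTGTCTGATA
pir probe 13089: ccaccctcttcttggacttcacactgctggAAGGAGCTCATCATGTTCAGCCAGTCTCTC
pir probe 13088: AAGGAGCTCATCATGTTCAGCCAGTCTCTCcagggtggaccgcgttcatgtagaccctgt
Both CU915778.1 probes met the rule, whereas of the pir pair only probe 13089 did.

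Of ftr16, a fish-specific TRIM protein, 3 probes are shown next, 1 for each of 3 transcripts, because 2 of these probes are nearly identical and the third is not. Capitals mark the 3 bases at which probe 26956 differs from probe 4027.
ftr16 isotig06044 probe 4027: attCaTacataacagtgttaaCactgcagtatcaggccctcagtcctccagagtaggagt
ftr16 isotig24582 probe 26956: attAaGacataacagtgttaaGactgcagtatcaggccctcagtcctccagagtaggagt
ftr16 isotig06045 probe 4029: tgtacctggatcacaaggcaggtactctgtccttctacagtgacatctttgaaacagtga
Probes 4027 and 4029 met the rule and probe 26956 did not. RNA of isotig06044 or isotig24582 may hybridize to the probe of the other, so their separate levels are uncertain, whereas probe 4029 shared no stretch of more than 7 bases with either.

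The probe annotated both with the symbol CXCR5, a chemokine receptor of B cells in mammals, and with the name interferon regulatory factor 5 is shown because these annotations name unrelated proteins.
CXCR5 probe 26913: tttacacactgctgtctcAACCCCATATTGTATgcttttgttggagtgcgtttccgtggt
Its reading frame 1 held 0 stop codons. Capitals mark bases 19 to 33, which are codons for the NPxxY motif of the last membrane span of rhodopsin-type receptors, the family of the chemokine receptors. This motif, in codons on either strand, was in 9 of the 697 listed oligos (1.29%) and in 1 of the 24 described here. The match is a description of the oligo alone. The 24 oligos held 41.7 to 55% G and C, with a median of 49.2%, against a median of 45% for the listed oligos.

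Arrays differed in brightness, with a median signal of 12.9 to 131 units per array and 62 to 90.8% of probes well above background. They were scanned on 18 slides, on 2 days and at photomultiplier settings of 580 or 610, and the median brightness of a group of fish ranged from 33.2 to 78.8 units. The first axis of the differences between fish of the same group held 34.8% of their variance. All 15 probes of 7 ionocyte marker genes, subunits of the sodium pump among them, were well above background on every array. Of the 24 probes described here, each was well above background on 68 to 70 of the 70 arrays, but 6 failed the filter on dim signals (at least 100 units on at least 50% of arrays): both isotig25620 probes and those of CXCR5, acot11b, plp1a and CR388129.2. For these 6, tests are given from the fit without this filter.

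The median difference from 2 ppt over the 24 probes was -0.51 at 0 ppt, -0.57 at 12 ppt and -0.31 at 18 ppt. It was -0.20 at 6 ppt, where the median of the study's list was -0.24. Over all probes of the array the thresholds were met by 7.15% (2632 of 36818), a larger share than the 4.304% of the study's list, and by 4.96% of probes past the filter on dim signals. The values just inside the threshold were -0.202 at 18 ppt for pir, -0.203 at 0 ppt for CR388129.2 and -0.207 at 18 ppt for ftr13. Just outside it were ftr16 probe 4028 at -0.198, lpar2a at -0.195 and si:dkey-66a8.7 probe 2912 at -0.194. Probe 4028 shared 59 of its 60 bases with the chosen probe 4027, and probe 2912 shared 59 with the chosen probe 2911, so membership at this edge was decided by differences smaller than those between probes of a transcript.

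**Figure D1:**
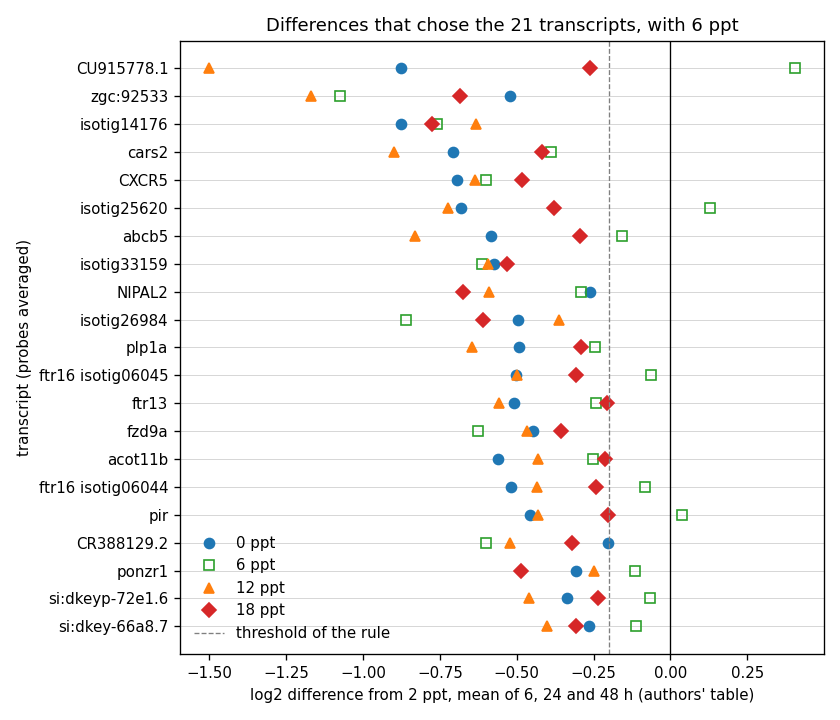
The difference from 2 ppt of each of the 21 transcripts (probes of a transcript averaged), as the mean over 6, 24 and 48 h of the authors' log2 values, at 0, 6, 12 and 18 ppt. The values at 0, 12 and 18 ppt are all at -0.2 or lower by the rule, whereas those at 6 ppt run from -1.08 for zgc:92533 to values above 0 for CU915778.1.

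Slide moved with these differences. When the slide was entered as a block in the same fit, 19 of the 24 probes stayed below 0 at all 3 salinities, but 6 stayed at -0.2 or lower at all 3: zgc:92533, both isotig25620 probes, CXCR5, ftr13 and fzd9a. With the slides in the model 21 probes were past -0.2 at 0 ppt, 19 at 12 ppt and 10 at 18 ppt, and the medians were -0.454, -0.358 and -0.157. The median SE of such a difference was 0.179, 0.189 and 0.176. With a term for the photomultiplier setting 22 of the 24 kept all 3 thresholds, and with array brightness as a covariate 21 did. The median moved most at 12 ppt, and most probes left the threshold at 18 ppt, where the differences had been nearest to it. The 5 probes no longer below 0 at all 3 salinities were both CU915778.1 probes (0.26 and 0.24 at 18 ppt), acot11b (0.0072 at 18 ppt), isotig26984 (0.023 at 12 ppt) and NIPAL2 (0.010 at 0 ppt). The part of the slides in these differences was not tested further.

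**Figure D2:**
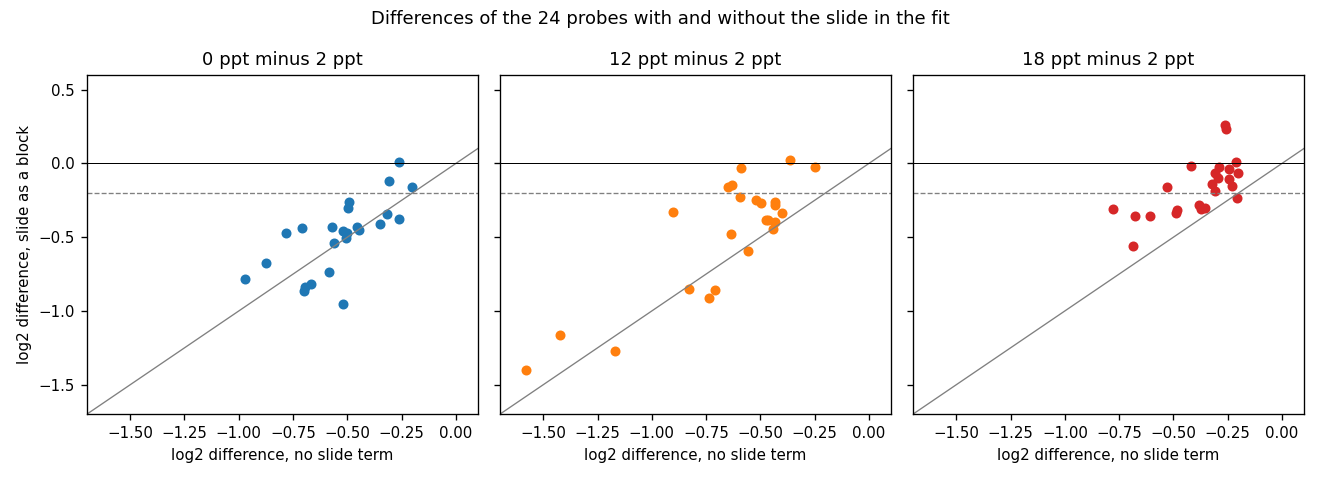
The difference from 2 ppt of each of the 24 probes at 0, 12 and 18 ppt, in log2 units, without (horizontal axis) and with the slide as a block (vertical axis); the dashed line is the threshold and the grey line marks equal values. Points above the threshold of -0.2 after the block are most frequent at 18 ppt, where 10 of 24 remained past it.

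CU915778.1, the transcript of a G7c protein, had the most negative difference of the 24, at -1.58 and -1.42 for its 2 probes at 12 ppt. It was -0.97 and -0.78 at 0 ppt and -0.26 for both probes at 18 ppt, but 0.50 and 0.31 at 6 ppt. The probes shared 30 bases and correlated at r = 0.942 between fish of the same group (70 fish). With the mean of both probes, the 3 fish at 12 ppt and 24 h had log2 signals of 5.70, 6.54 and 6.67. The 6 controls at that time ran from 6.79 through a median of 9.54 to 11.03. All 3 fish at 12 ppt were therefore below every control, although the controls spanned a wide range. At 0 ppt and 24 h the 4 fish had 7.36, 8.35, 8.37 and 8.39, within the lower part of the controls. At 6 ppt and 24 h the fish had 7.84, 9.51, 11.01 and 11.05, the uppermost fish lying at the top of the controls. With the slide as a block, the difference at 18 ppt became positive, 0.26 and 0.24.

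zgc:92533, whose product is uncharacterized, was at -0.52 at 0 ppt, -1.17 at 12 ppt and -0.68 at 18 ppt, and at -1.08 at 6 ppt. At 6 h, the end of the ramp, the 6 controls had 7.33, 7.50, 7.72, 7.91, 7.95 and 8.71. The 4 fish at 0 ppt had 6.84, 7.03, 7.06 and 7.12, those at 6 ppt 6.39, 6.50, 6.58 and 7.04, and those at 12 ppt 6.29, 6.66, 6.68 and 7.09. These 3 groups lay below every control. The fish at 18 ppt had 6.38, 7.16, 7.52 and 8.00 and overlapped the controls. The 5 pre-experiment fish had 6.31, 6.46, 6.76, 6.79 and 6.79, which was also below every control at 6 h. For this transcript the controls at the end of the ramp therefore stood above the fish that had not been through it. At 24 h the 3 fish at 12 ppt had 5.02, 5.77 and 6.20, against controls of 6.16 to 8.73. At 48 h the fish at 12 ppt had 6.63, 6.65, 7.06 and 7.06, within the controls of 6.32 to 7.29. The decrease at 12 ppt was therefore not present at 48 h.

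abcb5 encodes an ABC efflux transporter of the multidrug-resistance type and was at -0.58, -0.83 and -0.29 at 0, 12 and 18 ppt. Its 3 fish at 12 ppt and 24 h had 6.19, 6.19 and 6.21, and the 4 at 0 ppt had 5.72, 6.06, 6.43 and 6.83. The controls at 24 h had a lowest value of 6.68, a median of 7.66 and a highest value of 8.57. The fish at 12 ppt were below all controls, and at 0 ppt 1 fish reached into their range. At 48 h the controls themselves had a median of 6.48, and every other salinity overlapped them.

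Of the receptors, isotig25620 resembled membrane progestin receptor gamma-B, a membrane receptor for progestin steroids. Its 2 probes were at -0.70 and -0.67 at 0 ppt, -0.74 and -0.71 at 12 ppt and -0.38 at 18 ppt, and at 0.11 and 0.15 at 6 ppt. At the end of the ramp the fish at 12 ppt had 5.56, 6.11, 6.36 and 6.61. The controls then had a lowest value of 6.78, a median of 7.45 and a highest value of 7.95, all above the fish at 12 ppt. At 6 ppt and 6 h the values were 6.58, 7.62, 7.75 and 7.85, and 3 of the 4 fish lay among the controls.

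CXCR5 was at -0.70, -0.64 and -0.48 at 0, 12 and 18 ppt, and at -0.60 at 6 ppt. Over the 3 times its 12 fish at 0 ppt had a lowest log2 signal of 4.49, a median of 5.51 and a highest of 6.15, whereas the 18 controls had 5.05, 6.18 and 7.30. The groups overlapped widely. Its deviations from the group means followed array brightness at r = 0.438 over the 70 fish. With array brightness as a covariate its differences were -0.68, -0.53 and -0.40. They were -0.84, -0.48 and -0.32 with the slides in the model, all past -0.2. The part of brightness in these differences was not tested. CXCR5 is 1 of the 11 probes of the leukocyte markers. The median difference of that list was 0.67 at 0 ppt, 0.521 at 12 ppt and 0.0433 at 18 ppt, above 0 where CXCR5 was below it.

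fzd9a, a Frizzled receptor for Wnt ligands, was at -0.45, -0.47 and -0.36 at 0, 12 and 18 ppt and at -0.63 at 6 ppt. All 12 fish at 0 ppt and all 12 at 6 ppt were below the control mean of their own time, as were 9 of 11 at 12 ppt and 9 of 12 at 18 ppt. Its 4 fish at 12 ppt and 48 h had 8.59, 8.62, 8.69 and 8.74, and the controls then ran from 8.85 through 9.50 to 10.26, without overlap. At 6 h the fish at 12 ppt had 9.06, 9.38, 10.01 and 10.15 and those at 18 ppt 9.47, 9.60, 9.72 and 9.83. Both groups overlapped the controls, which then ran from 9.19 through 9.83 to 10.09.

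Among enzymes and kinases, isotig14176, similar to tyrosinase, the rate-limiting enzyme of melanin synthesis, was at -0.88, -0.63 and -0.78 at 0, 12 and 18 ppt. This rested in part on 3 control spots that the scanner software had called outliers, 2 at 6 h and 1 at 24 h. Without the outlier spots it was at -0.53, -0.28 and -0.43, still past the threshold. It was at -0.68, -0.15 and -0.31 with the slide as a block and all spots kept, so the difference at 12 ppt was no longer past it. At 24 h the remaining 5 controls had 6.96, 7.05, 7.05, 7.09 and 7.44. The fish at 18 ppt had 6.19, 6.20, 6.37 and 6.41, those at 0 ppt 6.13, 6.19, 6.51 and 6.74, and those at 12 ppt 6.36, 6.61 and 6.85, all below the remaining controls. At 48 h all groups overlapped.

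The transcript cars2, for the synthetase that charges mitochondrial tRNA with cysteine, was at -0.71, -0.90 and -0.42, and with the slide as a block at -0.44, -0.33 and -0.02. At 24 h the 6 controls had a lowest value of 7.64, a median of 8.12 and a highest value of 8.62. The fish at 12 ppt had 6.15, 6.21 and 7.51, below all of them, and the fish at 0 ppt had 6.23, 6.89, 6.90 and 7.88. At 18 ppt they had 6.51, 6.77, 7.13 and 7.83 at 24 h, but 7.45, 7.52, 8.05 and 8.60 at 48 h, where the controls ran from 6.56 through 7.43 to 8.28. The decrease of cars2 at 18 ppt was therefore not present at 48 h.

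isotig26984, similar to the polo-like kinase PLK2, was at -0.50, -0.36 and -0.61 and was lowest at 6 ppt, at -0.86. Its 12 fish at 6 ppt had a lowest log2 signal of 8.92, a median of 9.91 and a highest of 10.79, and the 18 controls had 10.18, 10.61 and 11.81. acot11b, an acyl-CoA thioesterase, was at -0.56, -0.43 and -0.21. pir, the iron-binding nuclear protein pirin, was at -0.46, -0.43 and -0.20 and at 0.04 at 6 ppt. Its 4 fish at 0 ppt and 48 h had 6.98, 7.06, 7.17 and 7.35, whereas the controls had a lowest value of 7.26 and a median of 7.64. The other pir probes of the array had differences of -0.10 at 18 ppt (probe 13088) and of -0.06 and -0.02 (probes 13090 and 13091 of isotig13710), so the decrease of pir at 18 ppt was seen by 1 of 4 probes at the threshold of -0.2.

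Of the membrane and transport proteins, NIPAL2, related to the magnesium transporters of the NIPA family, was lowest at 18 ppt, at -0.67, after -0.59 at 12 ppt and -0.26 at 0 ppt. With the slide as a block it was at -0.36, -0.03 and 0.010, so that only the difference at 18 ppt stayed past the threshold. All 12 fish at 18 ppt lay below the control mean of their time. At 48 h the fish at 12 ppt had 6.87, 7.51, 7.65 and 7.91 and those at 18 ppt 7.22, 7.58, 7.68 and 8.29. The controls had a lowest value of 8.10, a median of 8.57 and a highest value of 9.37, so that 1 of these 8 fish reached the controls. ponzr1, of the Plac8 family, with a role in zebrafish kidney and pharyngeal arch development, was at -0.31, -0.25 and -0.49, and with the slide as a block at -0.12, -0.03 and -0.34. At 18 ppt and 48 h its fish had 9.71, 10.09, 10.87 and 11.15, against 11.49 to 12.05 in the controls, but at 24 h they had 11.60, 11.97, 11.97 and 12.29 and overlapped controls of 11.46 to 12.26. plp1a, a proteolipid protein of myelin in other vertebrates, was at -0.49, -0.65 and -0.29.

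The finTRIM transcripts ftr16 and ftr13 belong to a family of fish proteins of which some are induced by viruses. ftr16 was at -0.52, -0.44 and -0.24 with probe 4027 and at -0.50, -0.50 and -0.31 with probe 4029, and lay near 0 at 6 ppt (-0.08 and -0.06). At 24 h the 4 fish at 0 ppt had 9.33, 9.43, 9.89 and 10.24 with probe 4027. The controls then had 10.50, 10.71, 10.73, 10.77, 10.97 and 11.72, all higher. ftr13 was at -0.51, -0.56 and -0.21. The probes of another transcript under the same symbol, isotig05209, were also lower at 0 ppt (-0.41 and -0.50) and at 12 ppt (-0.25 and -0.29). At 18 ppt they were above 0, at 0.16 and 0.13. They correlated with the chosen ftr13 probe at r = 0.190 and 0.089 between fish of the same group.

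**Figure D3:**
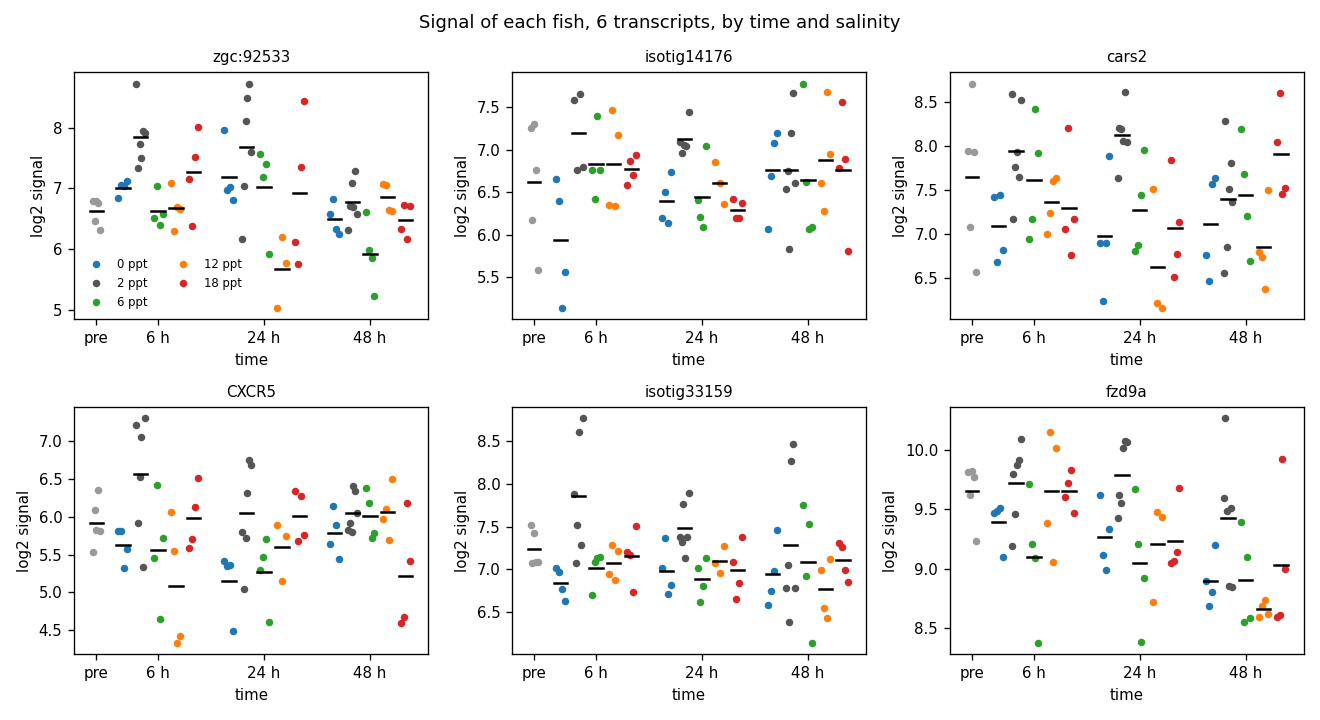
Log2 quantile-normalized signal (vertical axis) of each fish at each time for zgc:92533, isotig14176, cars2, CXCR5, isotig33159 and fzd9a, colored by salinity, with black lines for the group means. At 24 h the cars2 fish at 12 ppt (6.15 to 7.51) lie below all controls (7.64 to 8.62), whereas at 48 h the fish at 18 ppt (7.45 to 8.60) do not.

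The remaining transcripts had little or no annotation. isotig33159 was at -0.57, -0.59 and -0.53. Below the control mean of their time were 11 of 12 fish at 0 ppt, 11 of 11 at 12 ppt and 11 of 12 at 18 ppt. All fish lay below all controls at 1 time at 0 ppt and at 0 times at 12 and 18 ppt. High controls raised these means. At 48 h the controls had 6.38, 6.78, 6.78, 7.05, 8.27 and 8.46, with a mean of 7.29. The 18 ppt median then was 7.13, above the control median of 6.92. CR388129.2 was at -0.20, -0.52 and -0.32. With array brightness as a covariate it was at -0.18, -0.41 and -0.23, so the difference at 0 ppt was no longer past the threshold. At 12 ppt and 6 h its fish had 3.25, 5.29, 5.40 and 5.44. The part of brightness in these differences was not tested. The 2 probes of si:dkeyp-72e1.6, which shared 59 bases and correlated at r = 0.922 within groups, were at -0.32 and -0.35 at 0 ppt, -0.47 and -0.44 at 12 ppt and -0.24 and -0.23 at 18 ppt. For both, all 12 fish at 0 ppt and all 11 at 12 ppt were below the control mean. si:dkey-66a8.7, with a phosphatidylinositol-specific phospholipase C X domain, was at -0.26, -0.40 and -0.31. Its decrease at 12 ppt came from 6 h alone, when the fish had 6.92, 7.34, 7.61 and 8.08 against controls of 8.04 to 9.39. At 48 h they had 8.38, 8.58, 8.66 and 8.72 and were no lower than controls of 7.81 to 8.57.

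The median decrease over the 24 probes was larger at 6 and 24 h than at 48 h. At 0 ppt the median over the 24 probes was -0.561 at the end of the ramp, -0.726 a day into the trial (24 h) and -0.284 at the last sampling (48 h). The 12 ppt medians for the same samplings were -0.768, -0.583 and -0.282, and those for 18 ppt were -0.402, -0.416 and -0.242. The number of probes below 2 ppt went from 24 at 6 h to 22 at 48 h for 0 ppt, from 24 to 19 for 12 ppt and from 23 to 19 for 18 ppt. At 6 ppt the median went from -0.407 at 6 h through -0.289 to 0.0216, with 23, 15 and 12 of 24 probes below 2 ppt. Over all probes of the array the share below 2 ppt was 46.6 to 52.8% across these salinities and times. Array brightness also differed between these groups. At 6 h its median was 69.2 units at 2 ppt, and 57.2, 33.8, 38.4 and 33.2 at 0, 6, 12 and 18 ppt. At 24 h it was 71.8 at 2 ppt, and 58.6, 57.1, 54.9 and 76.8 at the others. At 48 h it was 48.1 at 2 ppt, and 54.8, 78.8, 47.8 and 47.3. The part of brightness in this time course was not tested.

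The handling controls moved during the same time. Relative to the pre-experiment fish the controls had a median over the 24 probes of 0.354 (6 h), then 0.115 (24 h) and then -0.22 (48 h), and 3, 8 and 16 of the 24 were below the pre-experiment mean. Of all probes of the array 47.6, 47.9 and 49.1% were below it. The rule did not use the fish at 6 ppt, but their difference from 2 ppt shares the control fish by which the probes were chosen. This difference, as a mean over time, was below 0 for 19 of 24 probes. Its median was -0.24 in the study's list and -0.02 over all probes of the array. Against the pre-experiment fish, 22 probes were lower at 0 ppt (median -0.367), 21 at 12 ppt (-0.41), 21 at 18 ppt (-0.23) and 17 at 6 ppt (-0.195). For 19 probes 0, 12 and 18 ppt were all below the pre-experiment mean, and for 10 of these the 2 ppt mean was above it. The differences from 2 ppt all share the control fish and those from the pre-experiment group all share its 5 fish, so these values are set side by side without a test.

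The change with time was a contrast that the rule did not use, although the study chose its list on these same arrays. Its list was made by tests of salinity and of the interaction of salinity with time. Averaged over the 5 salinities, 13 of the 18 probes past the filter were lower at 48 h than at 6 h by limma at an adjusted p of 0.05, and 0 were higher. Among all 14420 probes tested 41.4% were called, 18.9% as lower and 22.5% as higher. The median change was -0.44 over the 18 probes and -0.03 over all. The study reports that most of its salinity-affected genes also changed with time. The share of its whole list called in this contrast is not given here, so only the share of the array stands beside the 13. Without the filter on dim signals, 15 of the 24 were lower, against 9.92% of 36813 probes, and 1 was higher, against 13.1% (23% in either direction). Of the 13, 11 were called among arrays at the photomultiplier setting of 580 and 6 among those at 610.

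CU915778.1 had the largest change of the 24 in this fit, at -3.40 (SE 0.283, limma adjusted p = 4.06e-13) and -3.04 (SE 0.269, adjusted p = 8.86e-13) on the log2 scale for its 2 probes. At 6 h the 4 fish at 0 ppt had 9.64, 9.75, 10.11 and 10.25, and at 48 h they had 5.20, 5.21, 6.29 and 6.41. In the controls the lowest, median and highest values were 9.99, 10.52 and 11.65 at 6 h and 5.29, 6.65 and 7.76 at 48 h. At 12 ppt the fish had 8.60, 9.37, 9.45 and 9.53 and then 5.70, 5.71, 5.91 and 8.10, and at 18 ppt 8.68, 9.79, 10.03 and 10.56 and then 6.19, 6.90, 7.68 and 8.48. No fish of any salinity at 48 h reached the lowest fish at 6 h. The fitted decrease was larger than 2 log2 units at every salinity, including 2 ppt, where it was -4.28 (SE 0.535) and -3.94 (SE 0.508).

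abcb5 fell by 1.54 (SE 0.170, limma adjusted p = 2.27e-10) and pir fell by 0.81 (SE 0.0991, adjusted p = 2.55e-09). In the controls abcb5 went from a median of 8.00 at 6 h to 6.48 at 48 h, and pir from 8.69 to 7.64. For abcb5 the highest control at 48 h, 7.78, lay above the lowest at 6 h, 7.55, and was the only control at 48 h to do so. The 5 pre-experiment fish had abcb5 values of 8.22, 8.23, 8.25, 8.46 and 9.05, near the controls at 6 h.

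ftr16 fell by 0.63 with probe 4027 (SE 0.124, adjusted p = 3.97e-05) and fell by 0.55 with probe 4029 (SE 0.120, adjusted p = 0.000164). The changes of the other called probes were -0.52 for fzd9a, -0.47 for NIPAL2, -0.42 for ponzr1, -0.39 for ftr13 and -0.35 and -0.36 for si:dkeyp-72e1.6. zgc:92533 fell by 0.58 (SE 0.174, adjusted p = 0.00544), but this call was lost with scaling to the 75th percentile (adjusted p = 0.0607), with the authors' values (0.127), without the filter on dim signals (0.176) and within the arrays scanned at 610. Without the filter on dim signals, the progestin receptor isotig25620 changed by -0.79 and -0.83 (limma adjusted p = 0.000146 and 0.000104), acot11b fell by 0.43 (adjusted p = 0.00367), and CR388129.2 rose by 0.57 (adjusted p = 0.000972).

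The 7 transcripts without a call with time were isotig33159, at -0.15, cars2 at -0.12, si:dkey-66a8.7 at -0.06, plp1a at -0.02, isotig26984 at 0.00, isotig14176 at 0.05 and CXCR5 at 0.06. Of these, isotig14176, cars2 and CXCR5 had some of the most negative differences from 2 ppt.

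**Figure D4:**
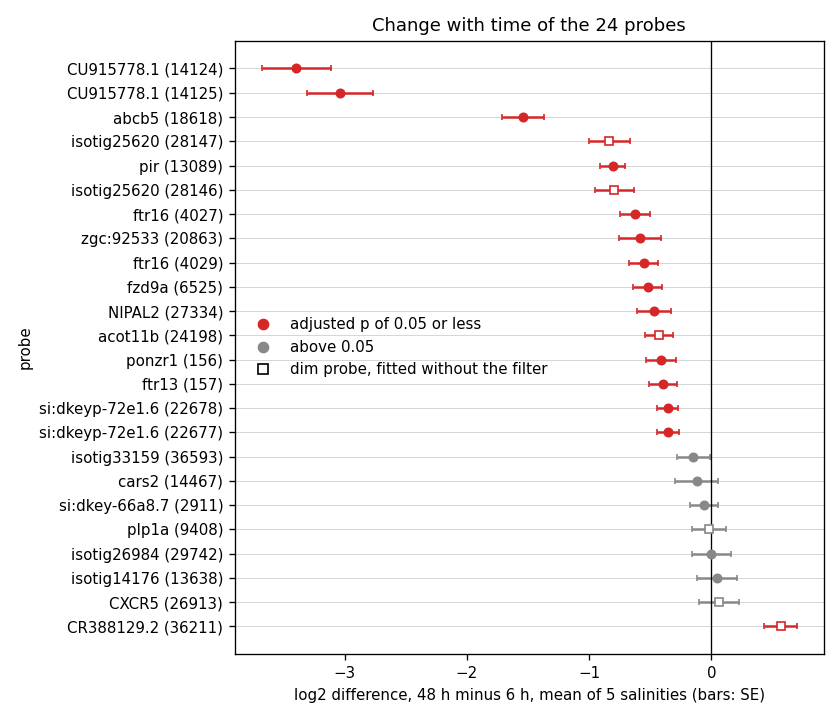
Change from 6 to 48 h of each of the 24 probes, in log2 units with its SE, averaged over 5 salinities; the marking separates probes called by limma at an adjusted p of 0.05 from the others. The CU915778.1 probes lie at -3.40 and -3.04, abcb5 at -1.54 and CR388129.2 alone among called probes above 0, at 0.57.

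**Figure D5:**
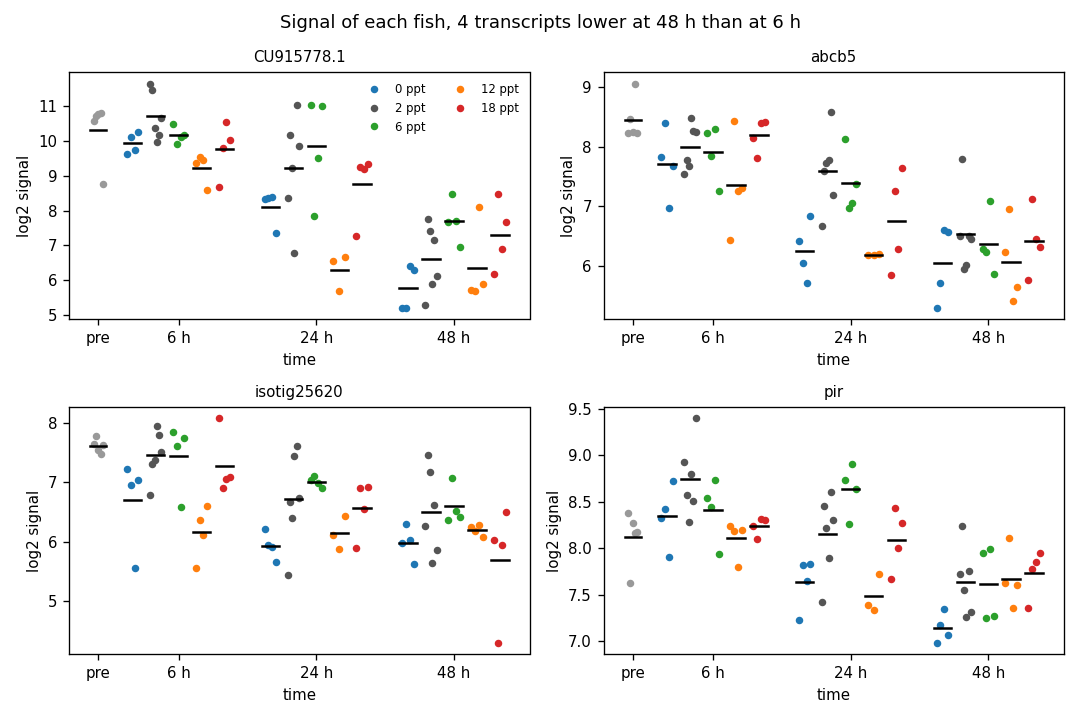
Log2 quantile-normalized signal (vertical axis) of each fish at each time, colored by salinity, for CU915778.1, abcb5, isotig25620 and pir, with black lines for the group means. For CU915778.1 no fish at 48 h (highest 8.48) reaches the lowest fish at 6 h (8.60).

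The fish at 6 ppt did not enter the rule. They did enter the tests of salinity and of its interaction with time, with which the study made its list. The mean over 6, 24 and 48 h at 6 ppt was compared with the pre-experiment fish, and 0 of the 18 probes past the filter were called by limma, where 0.118% of 14423 probes were (17 probes, with 870 at an unadjusted p under 0.05). Without the filter on dim signals 0 of the 24 were called, and 0.0407% of 36816. abcb5 was nearest, at -1.22 (SE 0.297, adjusted p = 0.0656), and its adjusted p was 0.0461 with the replicate number as a block. It was also under the threshold without fish 1 of 6 ppt at 24 h (0.0378), without fish 3 of 6 ppt at 48 h (0.0455) and without control A2 of 48 h (0.0434). At the end of the ramp 0 of the 14425 probes were called by limma between 6 ppt and pre-experiment fish (266 at an unadjusted p under 0.05). Without the filter 5 (0.0136%) were called, of which 0 were among the 24. With so few fish this does not show equal levels, and the recovery of changes in this comparison was not simulated. The study reports that at this time all treatments lay well away from the pre-experiment fish in its ordination of salinity-responsive genes.

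From 6 to 48 h at 6 ppt, 4 of the 18 probes fell by limma, against 9.96% of 14423 probes, and 0 rose, against 12.6% (22.6% in either direction). The changes were -2.64 (SE 0.655, limma adjusted p = 0.0056) and -2.31 (SE 0.622, adjusted p = 0.00958) for CU915778.1, -1.53 (SE 0.394, adjusted p = 0.00703) for abcb5 and -0.80 (SE 0.229, adjusted p = 0.0136) for pir. CU915778.1 had 9.91, 10.12, 10.17 and 10.50 at 6 h and 6.95, 7.67, 7.72 and 8.48 at 48 h, and abcb5 had 7.25, 7.84, 8.23 and 8.29 and then 5.87, 6.24, 6.29 and 7.09, both without overlap. pir had 7.94, 8.44, 8.54 and 8.73 at 6 h and 7.25, 7.27, 7.95 and 7.99 at 48 h, where 2 fish overlapped the lowest at 6 h. The pir call was lost with array brightness as a covariate (adjusted p = 0.0777), without fish 4 of 6 h (0.0722) and without fish 2 or fish 4 of 48 h (0.0604 and 0.0555). Among arrays of 1 photomultiplier setting, 0 of these 4 calls was made at 580 and 1 at 610.

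Without the filter on dim signals, CR388129.2 rose at 6 ppt from 6 to 48 h by 1.28 (SE 0.310, adjusted p = 0.00838), where 7.47% of 36816 probes rose and 5.71% fell (13.2% in all). Its fish had 4.18, 4.50, 4.97 and 5.47 at 6 h and 5.83, 5.90, 6.10 and 6.40 at 48 h. The median brightness of these arrays was 33.8 units at 6 h and 78.8 at 48 h, and the deviations of CR388129.2 from its group means followed brightness at r = 0.588 over 70 fish. The part of brightness in this rise was not tested.

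The 21 transcripts did not form 1 block across individual fish. Over the 70 fish, as deviations from the group means in the authors' values, the 210 pairs had a median r of 0.215, from -0.327 to 0.657, and 16 pairs (7.62%) were above 0.5. Among the transcripts of the study's list the median was 0.0902 and 9.85% of pairs were above 0.5. The highest pairs were both ftr16 transcripts at 0.657, isotig26984 with isotig33159 at 0.656, CXCR5 with CR388129.2 at 0.650 and pir with abcb5 at 0.595. All pairs share arrays and their brightness, so these correlations are a description.

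Of the gene lists into which the study's probes were sorted, cars2 was 1 of 10 probes of aminoacyl-tRNA synthetases, of which 8 of 9 tested were higher at 48 than at 6 h and 0 lower, while cars2 was not called. The median difference of that list from 2 ppt was 0.247 at 0 ppt, 0.28 at 12 ppt and -0.175 at 18 ppt, above 0 at 0 and 12 ppt where cars2 was below it. The list of cytokine and interferon response had 71 probes, with 17 higher and 15 lower of 56. The chosen ftr16 and ftr13 probes are 3 of the 71, which also hold the other listed probes under these symbols. The median differences of this list were 0.503, 0.254 and 0.0438 at 0, 12 and 18 ppt, on the other side of 0 from the 3 chosen probes. The 37 probes of ion and water transport and junctions held NIPAL2, with 4 higher and 12 lower of 31 and median differences of 0.215, -0.343 and -0.675. Mitochondrial and lipid genes had 43 probes, acot11b among them, with 11 higher and 14 lower of 34 and medians of -0.034, -0.0473 and -0.0932. The ionocyte markers had a median difference from 2 ppt of 0.164, 0.101 and -0.0556 at 0, 12 and 18 ppt, and their summed signal, as log2 over the array median, ranged between group means from 8.68 to 10.5. For the 10 epithelium probes the medians were 0.247, -0.431 and -0.784, and the summed signal ranged from 5.62 to 6.96. That of the leukocyte probes ranged from 6.52 to 9.63 and of the 2 endothelium probes (claudin 5a) from 1.97 to 4.36, where the median differences were 0.464, -0.515 and -1.07. Their part in the decreases was not tested.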

How the data were processed

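Gill RNA of 70 fish was measured on 1-color arrays of 36818 probes. The intensity values were background-subtracted by the authors with Feature Extraction 11.5.1.1 per the file headers and were not normalized between arrays. The deposited log2 values had been quantile normalized and log transformed by the authors, per the study's methods. They followed log2 quantile-normalized intensities centered on each probe's median (lowest r of an array 0.9994), so that higher is brighter.

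Probes were chosen on the deposited log2 values, and the members and gene lists were chosen with earlier results of these data known. For levels and tests, intensities were kept for probes of at least 100 units on at least 50% of arrays (14425 probes, 18 of the 24 described), outlier spots were left out (2036, 0.202%), and values were quantile normalized and log2 transformed. Group means of the 16 groups were fitted by limma 3.58.1 (R 4.3.3) over all 70 arrays, and p-values were adjusted by Benjamini-Hochberg over all probes (threshold 0.05). The residual degrees of freedom were 54, and the median residual SD was 0.45. Tests were made only for contrasts outside the rule: 48 against 6 h over all salinities and at 6 ppt, and 6 ppt against pre-experiment, over all times and at 6 h. The number of arrays limits the precision. On simulated data 90.5% of 200 probes changed by 1 log2 unit were recovered for the time effect and 62% for 6 ppt against pre-experiment, with 3.72% and 2.36% of calls false.

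Full values were given for the 10 transcripts with the most negative mean difference, those called at 6 ppt, the 5 with the largest time effects and the 3 nearest inside the threshold. The remaining transcripts were given by role. The photomultiplier setting was read from the names of the scans. The normexp alternative used median spot signals. Other alternatives were 75th percentile scaling, the deposited log2 values, no filter or a stricter one, slide, scan day, photomultiplier setting, array brightness and replicate number as terms, an ordinary linear model, and leaving out each fish. Python 3.11.15 with numpy 2.4.6, pandas 2.3.3 and matplotlib 3.10.9 was used for summaries and figures. The oligos were those of the study's probe list, and 8 of the 20 gene names matched a RefSeq symbol.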

Additional observations from a re-analysis of the deposited data

Results flagged for a closer look

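In 24 of 315 combinations of a transcript and a group of fish, 1 fish stood apart from the others of its group by Dixon's test. Chance gives about 1 in 20, or 15.8 such combinations, which share fish and arrays and so are not independent. For CU915778.1 these were single fish at 0 ppt and 24 h (7.36), 12 ppt and 48 h (8.10), 18 ppt and 24 h (7.28) and pre-experiment (8.78). abcb5 had a high fish at 2 ppt and 48 h (7.78) and in the pre-experiment group (9.05), and pir a low one at 12 ppt and 6 h (7.80) and pre-experiment (7.63). isotig25620 had a low fish at 0 ppt and 6 h (5.56) and a high one at 18 ppt and 6 h (8.08). Others were isotig14176 at 2 ppt and 24 h (7.44), CXCR5 at 0 ppt and 24 h (4.49), isotig33159 at 6 ppt and 6 h (6.70), ftr13 at 12 ppt and 48 h (8.55), CR388129.2 at 12 ppt and 6 h (3.25) and ponzr1 at 0 ppt and 48 h (12.07). At 18 ppt NIPAL2 had single fish apart at 6 h (7.59) and at 24 h (8.34). fzd9a had such fish at 0 ppt and 6 h (9.10) and at 18 ppt and 24 h (9.68). The ftr16 transcript isotig06045 had 1 at 2 ppt and 24 h (11.97). si:dkeyp-72e1.6 had 1 at 18 ppt and 24 h (9.14) and 1 at 2 ppt and 6 h (10.24), and si:dkey-66a8.7 had 1 at 2 ppt and 48 h (7.81).

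In 7 of 252 pairs of times, every fish of a salinity lay below the control mean at one time and every fish above it at the other. These differences between times were not tested. The pairs are those of the 21 transcripts alone, and the share of such pairs over all probes of the array was not determined. At 6 ppt CU915778.1 went from -0.55 at 6 h to 1.09 at 48 h, acot11b from -0.67 at 6 h to 0.25 at 48 h, the ftr16 transcript isotig06044 from -0.39 at 24 h to 0.19 at 48 h and pir from -0.33 at 6 h to 0.49 at 24 h. At 18 ppt cars2 went from -1.06 at 24 h to 0.51 at 48 h. CR388129.2 at 0 ppt went from -0.45 at 6 h to 0.15 at 48 h, and si:dkey-66a8.7 at 12 ppt from -1.30 at 6 h to 0.25 at 48 h.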

How the results depend on the processing

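No direction of a called result turned under the alternatives run. The time effect was called for 5974 probes, for 1179 of those tested with signal of at least 100 on every array (a smaller set), for 3920 within the photomultiplier setting of 580 and for 2370 within 610, where fewer fish were compared, and for 5472 to 7007 when single fish were left out. The 13 calls among the chosen probes were also made without any single fish, 6 were called within 610, 11 within 580, 3 of the 4 tested with signal on every array, and 12 or 13 with the other settings. For 6 ppt from 6 to 48 h (3259 calls), 573 were made with signal on every array, 42 within 580, 536 within 610, 414 with array brightness as a covariate and 987 to 4532 without single fish. The fish at 6 ppt that lowered this count most were fish 4 of 6 h (987 without it), fish 5 of 6 h (1570), fish 2 of 48 h (1552) and fish 4 of 48 h (1691). Among the chosen probes 3 or 4 were called without single fish, pir being the one lost. The 6 ppt to pre-experiment comparison (17 calls) gave 3 with normexp, 0 with signal on every array, 2 with the slide as a block, 0 within 580, 4 within 610 and 3 to 28 without single fish (3 without pre-experiment fish B4, 11 without A3, 27 without control A2 of 48 h and 28 without control B2 of 24 h). At 6 h alone (0 calls) there was 1 with 75th percentile scaling, 1 with the authors' values, 5 without the filter, 3 within 610, 1 with array brightness and 0 to 1 without single fish (1 without control A3 of 48 h). The causes of these moves were not tested.

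A threshold of -0.3 in place of -0.2 kept 10 of the 24 chosen probes, and leaving out single fish chose 19 to 31, with most of the 24 chosen every time. The least often chosen were pir and CR388129.2 (55 of 70 times each). The slide as a block chose 16 probes of which 6 were among the 24, and normexp 21 of which 17 were. Terms for the photomultiplier setting and brightness, and leaving out outlier spots, were tried for the choice after seeing the data, and chose 23, 22 and 24.

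Replicate numbers did not pair the fish: same-numbered fish of different groups correlated at a mean of 0.00429 and differently numbered fish at 0.000696. With the replicate number as a block the counts of calls were 6172, 25, 1404 and 0 for the time effect, 6 ppt against pre-experiment, 6 ppt over time and 6 ppt at 6 h.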
